A study of Mus musculus with 6 samples.

Results

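The genes for enzymes that use glutathione or thioredoxin against peroxides and electrophiles were followed in gonadal white adipose tissue (gWAT) of mice on normal chow or high-fat diet. They were taken by symbol alone: the cytosolic and microsomal glutathione transferases, the glutathione peroxidases, peroxiredoxins, thioredoxins, thioredoxin reductases and superoxide dismutases, together with Gclc, Gclm, Gss, Gsr, Slc7a11, Nqo1 and Srxn1. This gave 55 of the 19790 genes, of which 1, Gpx2-ps1, is a pseudogene. Of these, 49 had enough counts to be tested, and the other 6 (Gpx5, Gpx6, Gpx2-ps1, Gsta1, Gsta2 and Prdx6b, at 0 to 12 counts per library) were not. All 6 mice were wild-type C57BL/6, and for 8 weeks 3 of them ate normal chow (NCD) and 3 ate high-fat diet (HFD). The labels give 6 weeks as the age at which the HFD was started, the methods of the study give a later age, and the methods name male mice. RNA of the tissue was sequenced in bulk, so fewer cells of a type and less RNA per cell cannot be told apart. The labels number the libraries as replicates of a diet, and the p-values measure the spread between them.

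Total counts lay between 49575113 and 66360046 per library, and the libraries did not hold the same tissue mixture. Of the counts of NCD replicates 1, 2 and 3, 58.6%, 11.2% and 2.30% fell on 11 genes of seminal vesicle secretions, against 6, 8 and 2 counts in HFD replicates 1, 2 and 3. The defining genes of fat cells were present in every mouse, but their summed level (10 genes) was 5832, 22009 and 30083 CPM on NCD and 15781, 16560.4 and 12525 CPM on HFD, so it was lowest in NCD replicate 1. Levels are given as CPM, counts relative to library size after edgeR's TMM scaling, and per kilobase of exon (FPKM) where genes are compared with each other. The TMM factor was 0.496 for NCD replicate 1 and between 1.02 and 1.27 for the rest. The main results are given with all 6 mice and without NCD replicate 1. Square brackets after an adjusted p hold the lowest and highest adjusted p of the gene over the 15 alternatives to the test with all 6 mice. The fit without NCD replicate 1 is among the 15, so brackets after its p also cover fits that keep that mouse.

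As background, glutathione is made from glutamate, cysteine and glycine by glutamate-cysteine ligase (Gclc, Gclm) and glutathione synthetase (Gss), with cystine brought in by Slc7a11, and its oxidised form is reduced again by Gsr. Glutathione peroxidases use it against hydrogen peroxide and lipid hydroperoxides, and glutathione transferases attach it to electrophiles such as the aldehydes of lipid peroxidation. Peroxiredoxins do the same work with electrons from thioredoxin, which the thioredoxin reductases renew at the cost of NADPH, and superoxide dismutases supply the peroxide. In fat, NADPH is shared with fatty acid synthesis, and alpha class transferases clear the reactive aldehydes that form from stored lipid.

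Several of these genes are known targets of the transcription factor NRF2, which binds the antioxidant response element. The core letters of that element, TGACNNNGC, and the related letters TGACTCA and TGAGTCA of AP-1 sites were searched on both strands of the promoters in the RefSeq table (GRCm38.p6, 250 bases before to 50 bases after a transcript start). The table held 61 promoters of 47 members. It held no promoter of Gclc, Gsr, Gsta4, Gstt2, Prdx6, Prdx6b, Sod3 or Gpx2-ps1, so these members were not searched. The first motif was in 9 of the 61 (14.8%), against 12.4% of all 32851 promoters, and the second in 6 of the 61 (9.84%), against 5.20% of all promoters. The genes with the first motif were Gclm, Gsta3, Gstm5, Gstm7, Mgst1, Prdx1, Sod1, Srxn1 and Txnrd1. In Prdx1 the matches of the motifs overlapped, as in 149 of all promoters. A match is only a run of letters, and binding was not measured. Promoters are shown only from the 9 with the first motif. Those of Gsta3 (chr1:21240335-21240634, plus strand) and Gstm5 (chr3:107895604-107895903, plus strand) were picked because both genes fell on HFD. That of Srxn1 (chr2:152105274-152105573, plus strand) was picked because its HFD mice lay above all NCD mice. That of Gclm (chr3:122245307-122245606, plus strand) was picked because the gene encodes the modifier subunit of glutamate-cysteine ligase. The promoter of Prdx3, which also fell, held 0 matches to either motif. Those of Gpx7, Txn1, Prdx4 and Prdx5, whose HFD mice also lay above all NCD mice, held 0 as well. Capitals mark the letters of either motif on either strand. The match to TGACNNNGC began 121 bases before the start in Gsta3, 42 before it in Gstm5, 134 before it in Gclm and 28 bases after it in Srxn1.
Gsta3: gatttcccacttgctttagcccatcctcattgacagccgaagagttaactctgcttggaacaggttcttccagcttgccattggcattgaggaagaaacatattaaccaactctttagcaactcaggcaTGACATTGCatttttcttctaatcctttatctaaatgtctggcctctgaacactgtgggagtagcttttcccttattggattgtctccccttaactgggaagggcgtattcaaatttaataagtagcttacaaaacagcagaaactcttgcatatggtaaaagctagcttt
Gstm5: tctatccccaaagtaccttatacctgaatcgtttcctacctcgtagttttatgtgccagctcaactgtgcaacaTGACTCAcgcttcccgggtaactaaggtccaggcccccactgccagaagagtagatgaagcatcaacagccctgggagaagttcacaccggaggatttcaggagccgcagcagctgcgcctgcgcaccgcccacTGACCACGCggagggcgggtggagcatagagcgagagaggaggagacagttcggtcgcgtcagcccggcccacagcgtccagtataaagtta
Srxn1: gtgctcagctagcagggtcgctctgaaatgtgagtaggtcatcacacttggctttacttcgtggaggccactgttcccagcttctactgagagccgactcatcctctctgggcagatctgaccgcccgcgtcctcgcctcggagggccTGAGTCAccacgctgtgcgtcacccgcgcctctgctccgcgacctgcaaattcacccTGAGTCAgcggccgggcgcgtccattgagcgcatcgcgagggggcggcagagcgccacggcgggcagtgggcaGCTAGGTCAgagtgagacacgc
Gclm: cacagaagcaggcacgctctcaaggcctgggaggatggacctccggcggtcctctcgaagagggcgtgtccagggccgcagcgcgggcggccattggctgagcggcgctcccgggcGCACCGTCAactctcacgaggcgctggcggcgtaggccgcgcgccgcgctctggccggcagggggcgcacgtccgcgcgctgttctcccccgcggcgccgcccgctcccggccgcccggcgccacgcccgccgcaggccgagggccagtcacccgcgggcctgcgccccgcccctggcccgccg

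With all 6 mice, 4 of the 55 members fell on HFD and 0 rose at an adjusted p of 0.05 (edgeR's quasi-likelihood test). The 4 were the alpha class transferases Gsta3 and Gsta4, the mu class transferase Gstm5 and the mitochondrial peroxiredoxin Prdx3. Over all 15241 genes tested, 1.9% were called lower and 5.58% higher. An unadjusted p under 0.05 was reached by 20 members and 4524 genes. The median log2 fold change, HFD over NCD, was -0.18 over the 49 members tested and -0.08 over all genes, and 23 of the 49 were positive. By value alone, the diets did not overlap in 11 members higher and 11 members lower on HFD, against 20.5% and 18.7% of all genes.

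Without NCD replicate 1, 5 members rose (Gpx1, Gpx7, Gss, Sod3 and Srxn1) and 15 fell (Gclc, Gclm, Gsta3, Gsta4, Gstk1, Gstm2, Gstm5, Gstt1, Gstz1, Prdx3, Prdx6, Sod1, Txn2, Txnrd2 and Txnrd3). The background in that fit was 10.7% of genes higher and 10.1% lower, and the median was -0.31 over the members against 0.02 over all genes. The 4 members called with all 6 mice were among the 20. Of the 10 adipocyte genes, 5 also fell and 0 rose in the fit without NCD replicate 1, with a median log2 fold change of -0.85. With all 6 mice 0 of them passed. The part of the adipocyte difference in the members that fell was not tested. Leaving out any other mouse gave 0 members called, with 2 genes called in all without NCD replicate 2, NCD replicate 3 or HFD replicate 1, 7 without HFD replicate 2 and 4 without HFD replicate 3. With DESeq2 and all 6 mice, 6 members rose and 10 fell, beside 2153 and 1751 of the 15241 genes tested. With library totals as the only scaling, the all-gene median was 0.45 with all 6 mice. Then 1 member rose (Slc7a11) and 2 fell (Gsta3 and Gsta4), beside 748 and 211 of the 15241 genes. The sign of the estimate changed under that scaling in 6 of 49 members (Gpx8, Gstp1, Gstp2, Gstt2, Mgst1 and Nqo1), none of which was called. Without NCD replicate 1 it gave 8 members higher and 8 lower, with 2544 and 954 of all genes, against 1665 and 1569 with TMM, and it turned the sign of Gpx8, Gsto1, Prdx1 and Sod2.

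**Figure D1:**
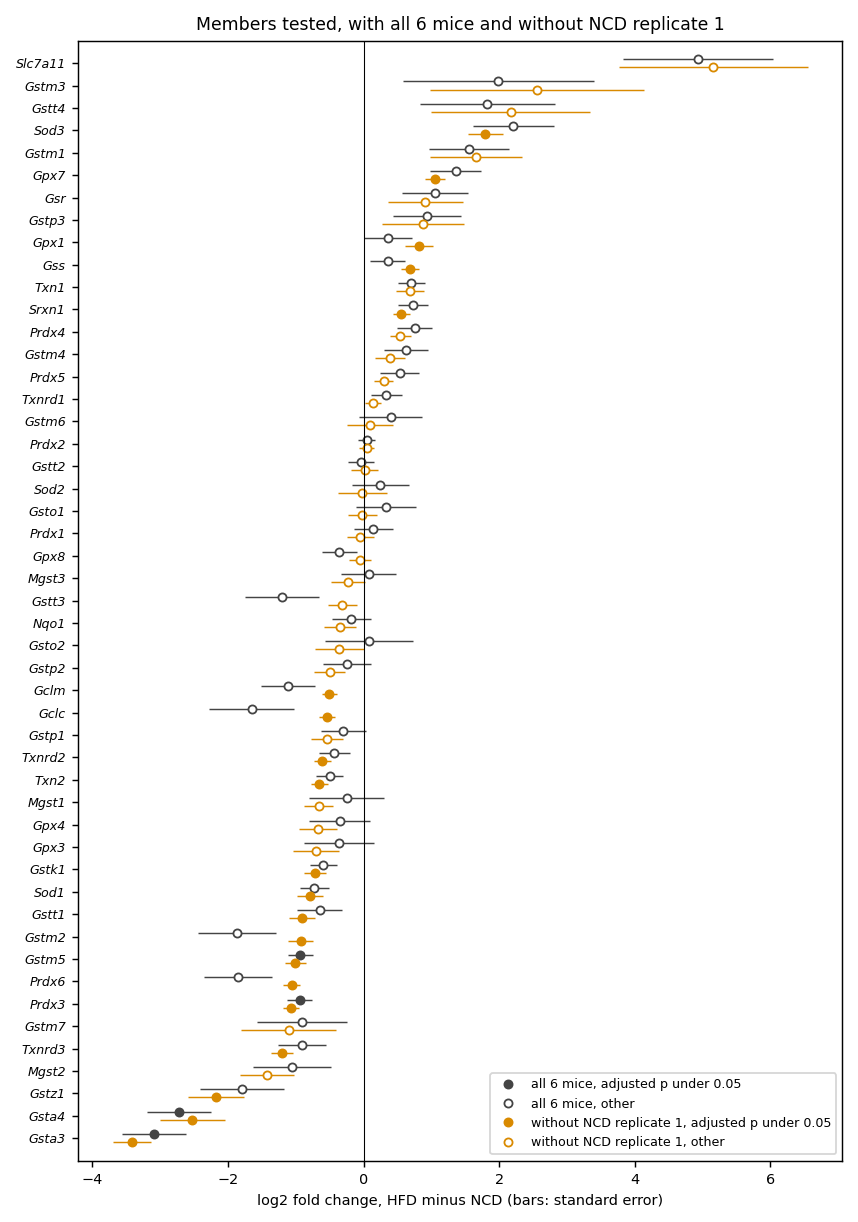
The horizontal axis is the log2 fold change (HFD minus NCD, TMM scaling) of each of the 49 members tested, in grey with all 6 mice and in orange without NCD replicate 1, with bars for the standard error and filled points for an adjusted p under 0.05. The 4 filled grey points (Gsta3, Gsta4, Gstm5 and Prdx3) are all below 0, several open grey points lie further below 0 than Gstm5 and Prdx3, and Slc7a11 at the upper end is open in both fits.

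Of the glutathione transferase classes, the alpha class had the lowest median log2 fold change (-2.90 over the 2 genes tested, Gsta3 and Gsta4). Gsta3 (chr1:21240565-21265575), which also reduces lipid hydroperoxides, had 72.7, 145 and 239 CPM in NCD replicates 1, 2 and 3 and 20.7, 19.4 and 13.7 CPM in HFD replicates 1, 2 and 3. Every HFD mouse lay below every NCD mouse, and the values on NCD were lowest in the library with the most seminal vesicle RNA. The gene was 8.49-fold lower on HFD (log2 fold change -3.09 ± 0.47, SE, n = 3 and 3, adjusted p = 0.0240), and without NCD replicate 1 the log2 fold change was -3.41 ± 0.28 (n = 2 and 3, adjusted p = 0.00544 [1.68e-25 to 0.115]). Gsta4 (chr9:78191966-78209349), the transferase best known for clearing hydroxynonenal, an aldehyde of lipid peroxidation, had 34.1, 22.1 and 26.9 CPM on NCD and 4.06, 6.62 and 1.94 CPM on HFD in the same order of replicates. It was 6.57-fold lower (log2 fold change -2.72 ± 0.47, adjusted p = 0.0302), and -2.53 ± 0.48 without NCD replicate 1 (adjusted p = 0.0209 [7.78e-07 to 0.0971]). Unlike Gsta3, its highest chow value was in NCD replicate 1, so the order of the chow mice was not the same in these genes. Gsta3 and Gsta4 also passed the test with libraries scaled to their total counts alone. The other members of the class, Gsta1 and Gsta2, were near 0 in every mouse, and 80.6% and 28.4% of their 100-base windows also occur in other genes, so their counts are uncertain.

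The mu class transferases lie side by side on chromosome 3, and their estimates differed in sign. Gstm5 (chr3:107895854-107898685) had 18.3, 23.2 and 21.1 CPM on NCD and 12.5, 10.5 and 9.79 CPM on HFD, with the diets apart and little spread within each. It was 1.91-fold lower (log2 fold change -0.93 ± 0.18, adjusted p = 0.0389), and -1.01 ± 0.15 without NCD replicate 1 (adjusted p = 0.0126 [9.06e-07 to 0.515]). Gstm1, the mu class member with the highest mean FPKM, had 259.7, 206 and 226 CPM on NCD and 1330.2, 348 and 353 CPM on HFD. All HFD mice were above all chow mice, and HFD replicate 1 stood far above the rest, and the log2 fold change of 1.55 ± 0.59 did not pass the test (adjusted p = 0.143 [0.0348 to 0.279]). Of 12 macrophage marker genes, 8 were also highest in HFD replicate 1 and 4 in HFD replicate 3, with a summed level of 5263, 2689 and 3378 CPM on HFD, and the part of macrophages in the Gstm1 value was not tested. Gstm2, given here as the neighbour of Gstm1 and chosen after its values were seen, had 551, 167 and 131 CPM on NCD and 91.4, 77.8 and 63.9 CPM on HFD. It fell without NCD replicate 1 (log2 fold change -0.93 ± 0.19), and with all 6 mice it did not pass (log2 fold change -1.87 ± 0.58, adjusted p = 0.0986). Per length, Gstm1 over Gstm2 was 0.411, 1.07 and 1.502 on NCD and 12.7, 3.90 and 4.82 on HFD, so Gstm1 was the more abundant of the pair in every HFD mouse and the less abundant in NCD replicate 1. The remaining mu genes, Gstm3, Gstm4, Gstm6 and Gstm7, had means of at most 23.0 CPM and did not pass in either fit.

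Of the smaller classes, Gstz1, Gstk1 and Gstt1 fell without NCD replicate 1, and 0 passed with all 6 mice. Gstz1, which as maleylacetoacetate isomerase works in tyrosine breakdown, had 213, 672 and 905 CPM on NCD and 248, 178 and 92.0 CPM on HFD. The value of NCD replicate 1 lay within the HFD range, and with it the log2 fold change was -1.79 ± 0.62, which did not pass (adjusted p = 0.121). Without that mouse Gstz1 was 4.53-fold lower on HFD (log2 fold change -2.18 ± 0.41, adjusted p = 0.0211 [4.14e-06 to 0.316]). Gstk1, the kappa class enzyme of mitochondria and peroxisomes, had 23.0, 27.3 and 35.9 CPM on NCD and 20.2, 19.6 and 17.5 CPM on HFD, with the diets apart. Its log2 fold change was -0.59 ± 0.20 (adjusted p = 0.118) and, without NCD replicate 1, -0.71 ± 0.16 (adjusted p = 0.0312 [0.00133 to 0.850]). Gstt1, of the theta class, had 27.4, 57.8 and 56.6 CPM on NCD and 27.2, 38.3 and 25.4 CPM on HFD and overlapped only through NCD replicate 1. It fell without that mouse (log2 fold change -0.90 ± 0.19, adjusted p = 0.0285 [7.20e-04 to 0.790]).

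Pi, omega and microsomal transferases did not pass the test in either fit. Gstp1, the pi class enzyme, had 48.8, 91.0 and 102 CPM on NCD and 47.4, 80.3 and 69.4 CPM on HFD (log2 fold change -0.30 ± 0.33, adjusted p = 0.578). Gsto1, of the omega class, had 14.9, 38.8 and 51.1 CPM on NCD and 54.3, 38.2 and 39.6 CPM on HFD (log2 fold change 0.33 ± 0.44, adjusted p = 0.640). Mgst1, which sits in the membranes of microsomes and mitochondria, had 183, 638 and 895 CPM on NCD and 447, 542 and 454 CPM on HFD (log2 fold change -0.25 ± 0.55, adjusted p = 0.783). In all of these the lowest or next to lowest of the 6 values was NCD replicate 1, where the adipocyte sum was lowest too. Gsto2, Gstp2, Gstp3, Gstt2, Gstt3, Gstt4, Mgst2 and Mgst3 had log2 fold changes from -1.20 ± 0.55 (Gstt3) to 1.83 ± 0.99 (Gstt4) with all 6 mice and passed in neither fit. Some transferases share sequence with close copies: 25.1% of the 100-base windows of Gstp1 and 46.9% of those of Gstp2 also occurred in another gene, mostly the other of the pair, as did 13.8% for Gstm3 and 10.8% for Gstt3. No source used here says how reads of shared windows were counted, and the split between such copies is uncertain. Gsta3, Gsta4, Gstm5 and Gstz1 had 0 shared windows.

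**Figure D2:**
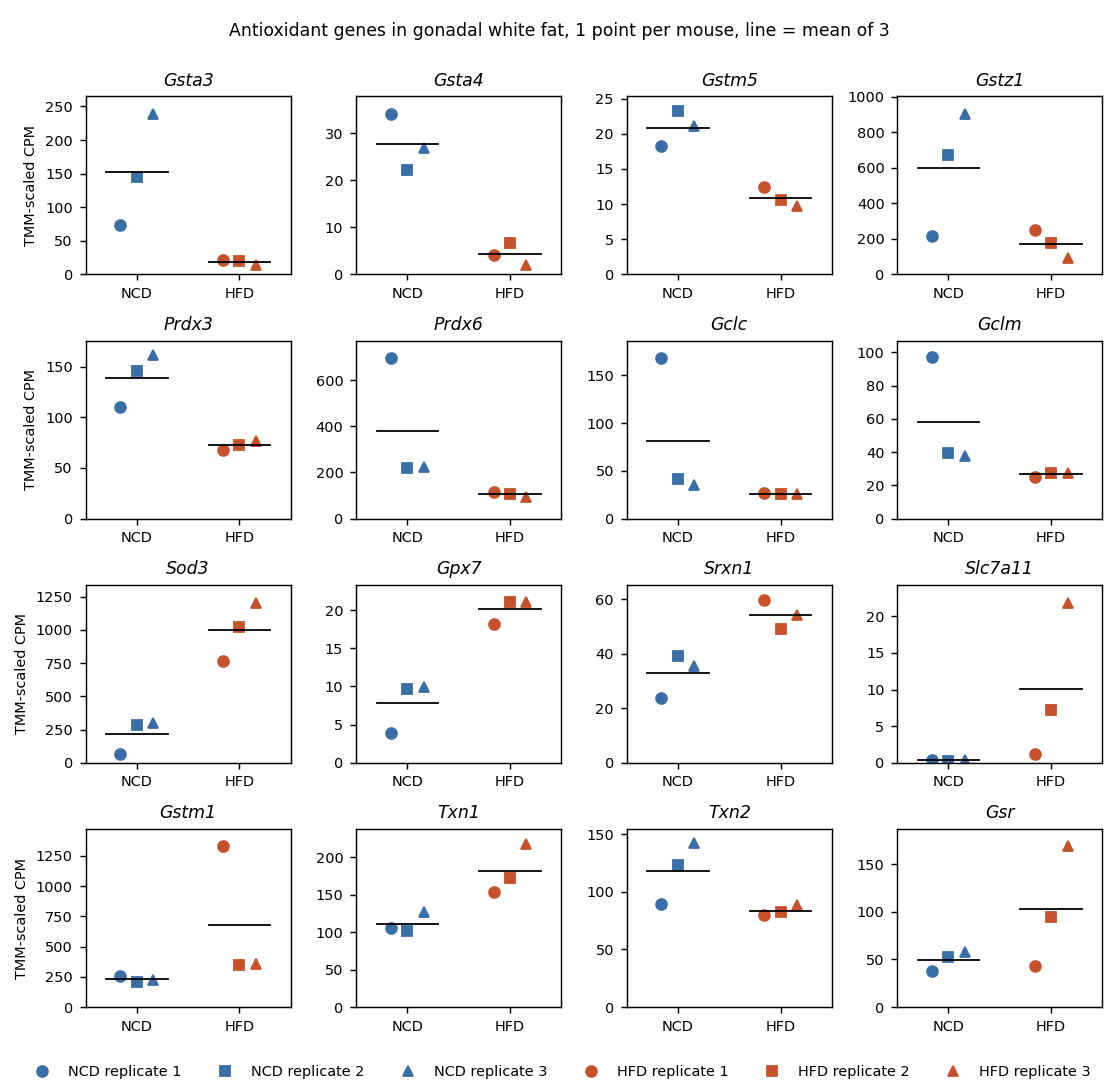
Each panel plots 1 gene in TMM-scaled CPM (linear axis from 0) for the 3 NCD mice in blue and the 3 HFD mice in orange, with the marker shape for the replicate number and a line for the mean of 3. Gsta3, Gsta4, Gstm5 and Prdx3 are lower in every HFD mouse, while Prdx6, Gclc and Gclm have 1 high chow point, NCD replicate 1, and Gstm1 has 1 high point, HFD replicate 1.

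The 5 genes of glutathione supply differed in the sign of their estimates, and 0 passed with all 6 mice. Gclc and Gclm encode the catalytic and the modifier subunit of the rate-limiting ligase. Gclc had 169, 41.4 and 34.8 CPM on NCD and 26.9, 25.4 and 25.7 CPM on HFD. Gclm had 97.4, 39.5 and 37.6 CPM on NCD and 25.2, 27.6 and 27.7 CPM on HFD. For both, all HFD mice lay below all chow mice, and NCD replicate 1 was more than 2-fold above the other chow mice. With all 6 mice the log2 fold changes were -1.65 ± 0.63 for Gclc (adjusted p = 0.146) and -1.11 ± 0.40 for Gclm (adjusted p = 0.128). Without NCD replicate 1 both fell by less in size but past the threshold, with -0.54 ± 0.12 for Gclc (adjusted p = 0.0307 [9.13e-04 to 0.339]) and -0.51 ± 0.11 for Gclm (adjusted p = 0.0290 [7.60e-05 to 0.430]). Per length, Gclc over Gclm was 2.83, 1.71 and 1.51 on NCD and 1.75, 1.498 and 1.51 on HFD, so the catalytic subunit was the more abundant transcript in every mouse.

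Gss, the synthetase of the last step, had 24.3, 14.2 and 13.8 CPM on NCD and 22.2, 20.8 and 23.7 CPM on HFD. Its highest value of all was NCD replicate 1, and the diets separated only without that mouse (log2 fold change 0.35 ± 0.26, adjusted p = 0.394 with all 6, and 0.68 ± 0.13, adjusted p = 0.0200 [9.94e-06 to 0.652] without it). Gsr, the reductase of oxidised glutathione, had 38.1, 52.2 and 58.3 CPM on NCD and 43.0, 94.9 and 169.6 CPM on HFD. HFD replicate 1 lay within the chow range and HFD replicate 3 far above it, and the log2 fold change of 1.05 ± 0.49 did not pass (adjusted p = 0.209 [0.103 to 0.524]).

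Slc7a11, the cystine and glutamate exchanger, had the largest estimate among the members. It had 0.426, 0.184 and 0.391 CPM in NCD replicates 1, 2 and 3 and 1.25, 7.26 and 21.8 CPM in HFD replicates 1, 2 and 3, that is 14, 11 and 21 counts against 72, 606 and 1369. All HFD mice were above all chow mice, but HFD replicates 1 and 3 differed widely from each other. The log2 fold change was 4.93 ± 1.11 with all 6 mice (adjusted p = 0.0518) and 5.16 ± 1.39 without NCD replicate 1 (adjusted p = 0.0513 [3.70e-06 to 0.144]), just outside the threshold in both fits. It passed with DESeq2 and with libraries scaled to total counts alone. Gsr had the same order of HFD mice. The 12 macrophage genes summed to 764, 992 and 877 CPM on NCD and 5263, 2689 and 3378 CPM on HFD, and 6 of them rose with all 6 mice and 11 without NCD replicate 1. Of the 12, 4 had the order of HFD mice seen in Slc7a11 (replicate 1 lowest, replicate 3 highest), and 8 were highest in HFD replicate 1. The part of macrophages in these members was not tested.

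Of the 8 glutathione peroxidase genes 5 were tested, and none passed with all 6 mice. Gpx3, the secreted peroxidase of plasma and the member with the highest mean FPKM of all 55, had 347, 898 and 1164 CPM on NCD and 408, 855 and 614 CPM on HFD. The diets overlapped only through NCD replicate 1, and Gpx3 passed in neither fit (log2 fold change -0.36 ± 0.51, adjusted p = 0.667 [0.0915 to 0.996], and -0.71 ± 0.34, adjusted p = 0.191 without that mouse). Gpx7, a peroxidase of the endoplasmic reticulum without selenocysteine, had 3.93, 9.62 and 9.94 CPM on NCD and 18.1, 21.1 and 21.1 CPM on HFD, and here all HFD mice were above all chow mice. Its log2 fold change was 1.36 ± 0.37 with all 6 mice (adjusted p = 0.0759), and without NCD replicate 1 it rose 2.08-fold (1.05 ± 0.14, adjusted p = 0.0101 [2.08e-10 to 0.222]). Gpx1, the main cytosolic selenoenzyme, rose in that fit too (0.82 ± 0.21), while with all 6 mice the diets overlapped (0.36 ± 0.35). Gpx4, which reduces phospholipid hydroperoxides in membranes and is the known guard against ferroptosis, had means of 402 ± 216 CPM on NCD and 315 ± 72.9 CPM on HFD (SD, n = 3 each), and 25.2% of its windows also occur in a pseudogene. Gpx8 had a log2 fold change of -0.36 ± 0.26. The epididymal enzyme Gpx5 had at most 2 counts in any library, although other epididymis genes reached a summed 120.2 CPM in NCD replicate 1.

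Of the 7 peroxiredoxin genes 6 were tested, and Prdx3 alone passed with all 6 mice. Prdx3 (chr19:60864066-60874538), the peroxiredoxin of the mitochondrial matrix, had 110.5, 146 and 161 CPM in NCD replicates 1, 2 and 3 and 67.9, 72.7 and 76.7 CPM in HFD replicates 1, 2 and 3. The diets were well apart, and the HFD mice lay close together. Prdx3 was 1.92-fold lower on HFD (log2 fold change -0.94 ± 0.19, adjusted p = 0.0396), and -1.07 ± 0.12 without NCD replicate 1 (adjusted p = 0.00711 [7.03e-17 to 0.525]). Prdx6, which has a single active cysteine and also phospholipase activity, had 697, 220.0 and 225 CPM on NCD and 115, 108 and 93.9 CPM on HFD. NCD replicate 1 held more than 3-fold the level of the other chow mice, and with it the log2 fold change was -1.85 ± 0.50 (adjusted p = 0.0758). Without it the remaining mice gave -1.06 ± 0.13 (adjusted p = 0.00833 [4.52e-12 to 0.238]), and Prdx6 was 2.09-fold lower on HFD.

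Prdx1, the abundant cytosolic peroxiredoxin with the highest mean FPKM of the family (though below Prdx6 in NCD replicate 1), had 294, 449.5 and 524 CPM on NCD and 549, 402 and 452 CPM on HFD and did not pass (log2 fold change 0.15 ± 0.29, adjusted p = 0.756 [0.522 to 0.971]). Prdx2, also cytosolic, was the steadiest member of the family, from 104 to 113 CPM over the 6 mice, with a log2 fold change of 0.05 ± 0.13. Prdx4 of the endoplasmic reticulum and Prdx5 of mitochondria and peroxisomes had all HFD mice above all chow mice, with log2 fold changes of 0.75 ± 0.26 and 0.53 ± 0.28 that passed in neither fit. Srxn1, sulfiredoxin, which repairs overoxidised peroxiredoxins, had 23.6, 39.3 and 35.3 CPM on NCD and 59.7, 49.1 and 54.2 CPM on HFD. All HFD mice were above all chow mice (log2 fold change 0.73 ± 0.22, adjusted p = 0.0916), and the gene rose without NCD replicate 1 (0.56 ± 0.13, adjusted p = 0.0346 [0.00277 to 0.246]). The family sum was 1297, 1084 and 1202 CPM on NCD and 1082, 893 and 938 CPM on HFD.

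Of the thioredoxins, the cytosolic and the mitochondrial gene had estimates of opposite sign. Txn1, the cytosolic thioredoxin, had 106, 102 and 127 CPM on NCD and 154, 173 and 219 CPM on HFD, all HFD mice above all chow mice, and did not pass in either fit (log2 fold change 0.70 ± 0.20, adjusted p = 0.0796, and 0.68 ± 0.21, adjusted p = 0.0695 [0.00680 to 0.230] without NCD replicate 1). Txn2, its mitochondrial counterpart, chosen here after its values were seen, had 89.3, 123 and 142 CPM on NCD and 79.6, 82.7 and 88.6 CPM on HFD, all HFD mice below all chow mice. It had a log2 fold change of -0.50 ± 0.20 with all 6 mice and fell without NCD replicate 1 (-0.65 ± 0.13). Per length, Txn1 over Txn2 was 4.39, 3.06 and 3.31 on NCD and 7.17, 7.74 and 9.14 on HFD. Every HFD ratio was above every chow ratio, and a ratio within a mouse shows only that the genes changed unequally.

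The reductases were compared in the same way. Txnrd1, the cytosolic selenoenzyme, had 53.9, 90.2 and 89.5 CPM on NCD and 96.2, 93.3 and 105 CPM on HFD. It did not pass (log2 fold change 0.34 ± 0.23, adjusted p = 0.365 [0.108 to 0.593]). Txnrd3, the thioredoxin and glutathione reductase best known from testis, had 11.1, 26.6 and 25.2 CPM on NCD and 11.01, 13.0 and 9.58 CPM on HFD. NCD replicate 1 lay within its HFD range, and without that mouse it was 2.29-fold lower on HFD (-1.20 ± 0.16, adjusted p = 0.00982 [2.07e-08 to 0.582]). Txnrd2, the mitochondrial reductase, also fell without NCD replicate 1 (-0.61 ± 0.13). Txnrd1 over Txnrd2 per length was 3.46, 3.66 and 3.59 on NCD and 5.51, 5.87 and 7.06 on HFD, again with no overlap of the diets.

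Of the superoxide dismutases none passed with all 6 mice, and without NCD replicate 1 Sod3 rose and Sod1 fell. Sod3, the secreted enzyme bound to the extracellular matrix, had 65.7, 281 and 301 CPM in NCD replicates 1, 2 and 3 and 767, 1024 and 1205 CPM in HFD replicates 1, 2 and 3. All HFD mice were above all chow mice, and NCD replicate 1 was far below the other chow mice. The log2 fold change of 2.21 ± 0.60 did not pass with all 6 mice (adjusted p = 0.0754), and without NCD replicate 1 Sod3 rose 3.47-fold (1.79 ± 0.26, adjusted p = 0.0112 [8.20e-13 to 0.221]). Sod1, the copper and zinc enzyme of the cytosol, had 287, 303 and 374 CPM on NCD and 215, 208 and 159.7 CPM on HFD, with all HFD mice below all chow mice. Its log2 fold change was -0.73 ± 0.21 (adjusted p = 0.0854), and it fell without NCD replicate 1 (-0.79 ± 0.19, adjusted p = 0.0375 [9.14e-04 to 0.745]). Sod2, the manganese enzyme of mitochondria, overlapped between diets (log2 fold change 0.25 ± 0.42), and 12.8% of its windows recur in other genes. Sod3 over Sod1 per length was 0.0392, 0.159 and 0.138 on NCD and 0.611, 0.845 and 1.29 on HFD, so Sod3 exceeded Sod1 only in HFD replicate 3. Nqo1, the quinone reductase often read as an NRF2 target, was low, at 3.38, 5.57 and 4.88 CPM on NCD and 3.45, 3.98 and 4.77 CPM on HFD (log2 fold change -0.18 ± 0.29, adjusted p = 0.699 [0.291 to 0.969]).

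Compared per length, Gpx3 and Sod1 were the most abundant members by mean FPKM. Gpx3 had 218, 563 and 730.1 FPKM on NCD and 256, 536 and 385 FPKM on HFD, and it was the most abundant member in NCD replicates 2 and 3 and HFD replicates 2 and 3. Sod1 followed with 448, 473 and 584 FPKM on NCD and 336, 324 and 249 FPKM on HFD. In NCD replicate 1 the top member was Gstm2 and in HFD replicate 1 it was Gstm1, so the leader in each first replicate was a mu class transferase. Sod3 stood among the 4 highest members in HFD replicates 2 and 3 and in no chow mouse. At the other end, Slc7a11 had a mean of 0.0339 FPKM on NCD and 1.03 FPKM on HFD, below Gclc, Gclm, Gss and Gsr.

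**Figure D3:**
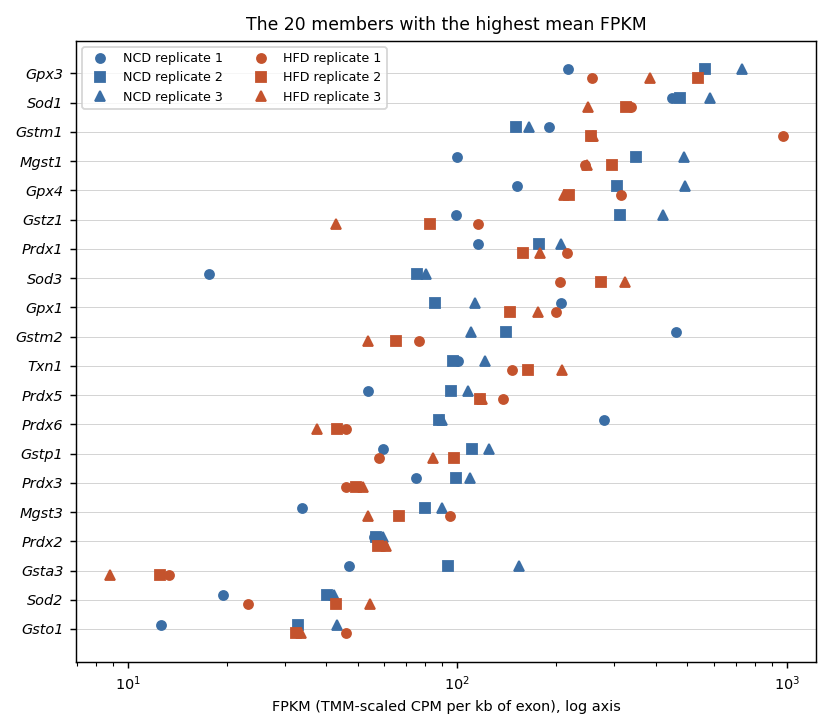
The 20 members with the highest mean FPKM are ordered from the top, with 1 point per mouse on a log axis of FPKM (blue for NCD, orange for HFD, marker shape for the replicate number). Gpx3 and Sod1 lead the order, the Gsta3 points of the diets are well apart, and the Prdx2 points of all 6 mice nearly coincide.

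The chow mice differed from each other in these genes and in their seminal vesicle RNA, and a link between these differences was not tested. NCD replicate 1 was the highest chow mouse in 12 of the 49 members, against 43.6% of all genes tested. It was the lowest chow mouse in 33 of the members, and the share of all genes for this is not given here. In 5 of the 49 members (Prdx6, Gclc, Gclm, Gstm2 and Gstt3) it was more than 2-fold above both other chow mice, against 13.7% of all genes tested. In 16 members it was more than 2-fold below both others, again against 13.7% of all genes. The largest ratios of NCD replicate 1 to NCD replicate 3 were 4.84 for Gclc and 4.20 for Gstm2, and the smallest of the 49 was 0.153 for Gsto2, followed by 0.204 for Mgst1. The seminal vesicle sum differed 55.0-fold between the same mice, and adipocyte markers were lower in NCD replicate 1. Smooth muscle genes (8) summed to 6858, 822 and 256 CPM on NCD and 326, 252 and 231 CPM on HFD, and epithelial genes (12) to 1739, 190.3 and 47.3 CPM on NCD and 35.0, 145 and 46.0 CPM on HFD. NCD replicate 2 also held seminal vesicle RNA, and its part in the values of that mouse was not tested.

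**Figure D4:**
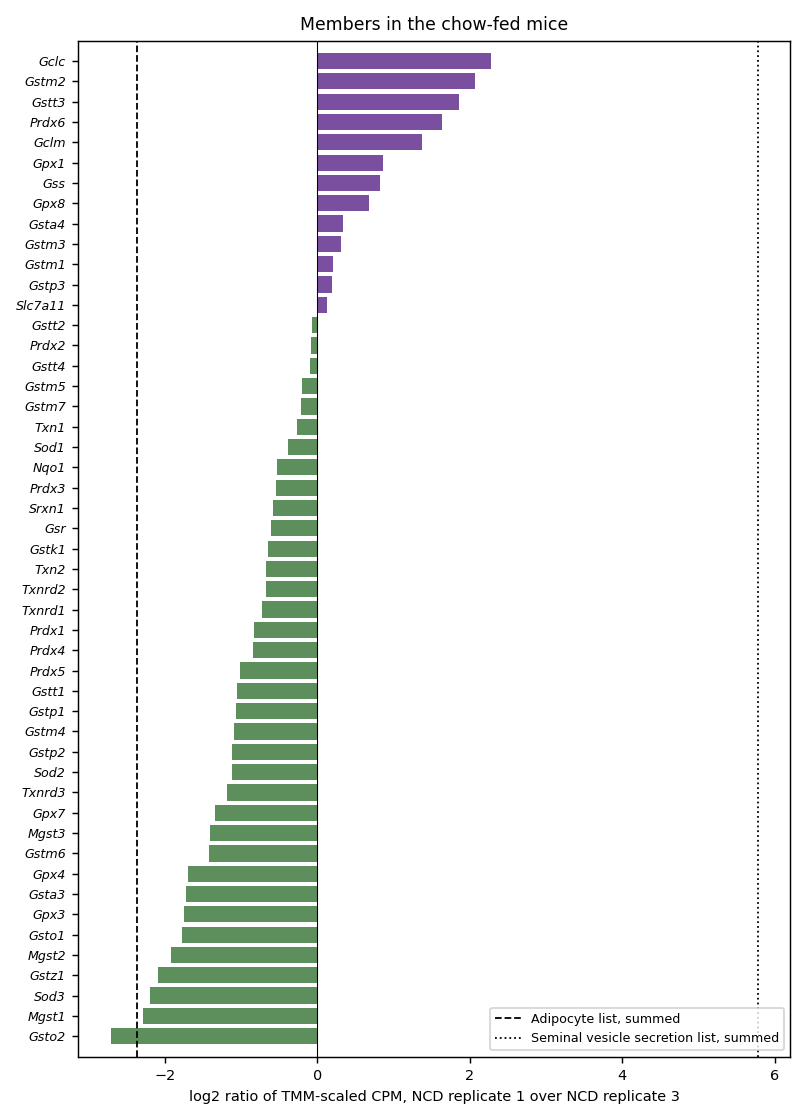
Bars give the log2 ratio of NCD replicate 1 over NCD replicate 3 (TMM-scaled CPM) for the 49 members tested, purple where it is above 0 and green where it is not. The dashed line is the summed adipocyte list and the dotted line the summed seminal vesicle list, and most bars lie on the side of the adipocyte line.

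Genes next to these enzymes in metabolism were read from 9 lists of 71 genes in all, chosen by function. With all 6 mice 12 passed, 6 higher and 6 lower, and without NCD replicate 1 28 passed, 10 higher and 18 lower. Over all genes tested, 5.58% were called higher and 1.9% lower with all 6 mice, and 10.7% and 10.1% without NCD replicate 1. The median log2 fold change of the listed genes was -0.29 with all 6 mice, against -0.08 over all genes. In the NRF2 list Hmox1, heme oxygenase, rose from 14.9, 35.2 and 33.1 CPM to 124, 122 and 176 CPM (log2 fold change 2.34 ± 0.37, adjusted p = 0.0254 [3.45e-17 to 0.108]), as did Bach1, the repressor of that gene (1.32 ± 0.25, adjusted p = 0.0357). Nfe2l2, which encodes NRF2 itself, had 71.1, 98.2 and 110.3 CPM on NCD and 124, 125 and 119 CPM on HFD and did not pass (0.40 ± 0.20, adjusted p = 0.230 [0.0582 to 0.428]). Without NCD replicate 1, 3 of the 8 genes of that list passed, all higher (Hmox1, Bach1 and Mafk). Of the 9 members with the motif TGACNNNGC only Gsta3 and Gstm5 passed with all 6 mice, both downward, beside 4 of all 49 members tested. Without NCD replicate 1, Gclm and Sod1 passed downward as well, and Srxn1 passed upward, beside 20 of all 49 members tested in that fit.

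NADPH supply was lower on HFD in 2 of 10 genes with all 6 mice and in 6 without NCD replicate 1, with 0 higher in either fit. Me1, malic enzyme, had 465, 2507 and 2988 CPM on NCD and 242, 190.2 and 138 CPM on HFD (log2 fold change -3.39 ± 0.74, adjusted p = 0.0496 [2.81e-39 to 0.191]). Tkt, transketolase of the pentose phosphate pathway, had 537, 1586 and 2096 CPM on NCD and 317, 198 and 184 CPM on HFD (log2 fold change -2.59 ± 0.57, adjusted p = 0.0495 [1.21e-19 to 0.191]). Both are abundant in fat cells, and the part of the adipocyte differences given above was not tested. G6pdx, the first enzyme of that pathway, had 136, 328 and 294 CPM on NCD and 386, 252 and 213 CPM on HFD and did not pass (0.17 ± 0.40, adjusted p = 0.800). Cdo1, cysteine dioxygenase, which takes cysteine away from glutathione synthesis, had 3897, 2239.7 and 2426 CPM on NCD and 577, 429 and 181 CPM on HFD and fell 7.21-fold (-2.85 ± 0.56, adjusted p = 0.0389 [2.25e-07 to 0.146]), the only gene of 7 in the cysteine list to pass with all 6 mice. Cbs, which makes cystathionine, was low at 1.64, 2.29 and 2.68 CPM on NCD and 3.88, 1.68 and 0.590 CPM on HFD.

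Among relatives of the transferases by fold or family, 3 of 8 tested rose and 1 fell. Hpgds, the prostaglandin D synthase of blood cells and a sigma class transferase, had 5.51, 7.98 and 5.40 CPM on NCD and 84.5, 24.4 and 36.4 CPM on HFD (log2 fold change 2.94 ± 0.51, adjusted p = 0.0300 [5.12e-07 to 0.105]). Alox5ap, which presents arachidonate to lipoxygenase, had 8.98, 30.2 and 27.6 CPM on NCD and 92.4, 104 and 149.9 CPM on HFD (log2 fold change 2.37 ± 0.49, adjusted p = 0.0434 [9.29e-13 to 0.153]). Clic1, a soluble protein of the transferase fold, had 68.1, 52.4 and 38.0 CPM on NCD and 163, 146 and 183 CPM on HFD (log2 fold change 1.63 ± 0.25, adjusted p = 0.0240 [2.43e-16 to 0.103]). Ptges, a prostaglandin E synthase related to Mgst1, went the other way with 78.3, 192 and 178 CPM on NCD and 43.5, 44.3 and 48.7 CPM on HFD (log2 fold change -1.72 ± 0.35, adjusted p = 0.0428 [7.63e-62 to 0.199]). Macrophages also express Hpgds and Alox5ap, and the part of the higher macrophage sum in these values was not tested.

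In glutathione turnover, Anpep, aminopeptidase N, had 12.1, 25.7 and 20.4 CPM on NCD and 329, 91.9 and 81.1 CPM on HFD and rose (log2 fold change 3.11 ± 0.66, adjusted p = 0.0462 [1.65e-05 to 0.136]), and Lap3, a leucine aminopeptidase, fell (-0.80 ± 0.18). Ggt1, the gamma-glutamyltransferase that starts glutathione breakdown outside the cell, had 414, 37.4 and 7.35 CPM on NCD and 0.0693, 0 and 0.351 CPM on HFD. It passed as lower on HFD (adjusted p = 0.0495 [1.06e-05 to 0.151]), but its ratio of NCD replicate 1 to NCD replicate 3 was 56.3, beside 55.0 for the seminal vesicle sum, and the part of seminal vesicle RNA in its value was not tested. Cat, catalase, the other main remover of peroxide, had 236, 656 and 845 CPM on NCD and 459, 400.2 and 289.8 CPM on HFD (log2 fold change -0.60 ± 0.49, adjusted p = 0.442) and fell without NCD replicate 1 (-0.96 ± 0.25). Glrx, glutaredoxin, had 42.1, 15.5 and 11.2 CPM on NCD and 25.1, 28.9 and 42.8 CPM on HFD and rose without NCD replicate 1 (1.29 ± 0.29). Glo1, glyoxalase, had 54.3, 59.5 and 69.1 CPM on NCD and 45.5, 51.4 and 45.0 CPM on HFD and passed in neither fit. Sephs2, needed to make selenocysteine, had 36.4, 72.2 and 88.3 CPM on NCD and 30.6, 40.5 and 35.5 CPM on HFD and fell without NCD replicate 1 (-1.16 ± 0.16).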

How the data were processed

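Libraries were prepared with the TruSeq mRNA kit (its stranded version per the labels) and sequenced on a NovaSeq. The authors deposited unnormalised read counts, with a gene in each row and a mouse in each column. Every column name matched the labels of 1 sample (0 columns without a sample), and the third HFD replicate carries another number in its name. The submitters' processing notes name bcl2fastq 2.20.0, Trimmomatic, HISAT2 2.1.0, StringTie 1.3.4d, DESeq2 and the builds mm10 and GRCm38, without roles or order. The counting rule, annotation and use of strand were not given in the sources used here, so the split of reads between overlapping genes is unknown.

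Of 19790 NCBI identifiers, 19742 had a symbol in the RefSeq table of GRCm38.p6, and the other 48 held 0.629% of the counts. Genes of that table that match the symbol rule but have no row here were not analysed here. Exon lengths for FPKM, found for 54 of the 55 members, came from GENCODE basic transcripts. The 100-base windows for shared sequence came from the full set of GENCODE transcripts.

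Genes that passed filterByExpr (at least 10 counts, total at least 15) were scaled by TMM. The quasi-likelihood test of edgeR 4.0.16 (glmQLFit and glmQLFTest in R 4.3.3, two-sided) was then applied without covariates, and p-values were adjusted by Benjamini-Hochberg over 15241 genes with all 6 mice or 15510 without NCD replicate 1, at 0.05. Standard errors were taken as |log2 fold change| over the root of F. The common biological coefficient of variation was 0.424 with all 6 mice and 0.288 without NCD replicate 1. Replicate libraries were distinct (chi-square over degrees of freedom, 115 to 3598). Alternatives were DESeq2 1.42.0, other scalings, no filter, removal of seminal vesicle genes, a replicate block and each mouse left out. The procedure was tested on simulated data.

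Members and gene lists were chosen with earlier results of these data known. Full values are given for members that passed with all 6 mice, those that passed without NCD replicate 1 with a log2 fold change of at least 1 in size, the genes of glutathione supply, Nqo1, Srxn1 and the member of each class with the highest mean FPKM. Neighbouring genes are named if they were among the 10 largest changes that passed or the first of their list. Other named genes were chosen after their values were seen. With 49575113 to 66360046 counts per library, the spread between mice limits the precision of all but the lowest genes. Plots used matplotlib 3.10.9 (Python 3.11.15).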

Additional observations from a re-analysis of the deposited data

How the results depend on the processing

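With all 6 mice 1139 genes were called, against 803 with no filter on low counts, 1135 with median-of-ratios scaling, 959 with total counts alone, 1125 with the seminal vesicle genes removed and 3904 with DESeq2. Members called higher and lower numbered 0 and 4 with all 6 mice, 0 and 2 without the filter, 1 and 2 with total counts alone, 6 and 10 with DESeq2, and 0 and 4 with median-of-ratios scaling or without the seminal vesicle genes. Leaving out 1 mouse in turn gave 2 to 3234 genes, 0 to 5 members higher and 0 to 15 lower, and any count above 7 genes came from leaving out NCD replicate 1. That fit was repeated, after the data had been seen, with DESeq2 (5393 genes, 8 and 17 members), median-of-ratios scaling (3226 genes, 5 and 15 members) and total counts alone (3498 genes, 8 and 8 members). The cause was not tested.

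Deviations of same-numbered mice from their diet means had correlations of -0.056, -0.046 and 0.0097 for replicates 1, 2 and 3. With 3 mice per diet and the uneven seminal vesicle RNA on NCD, these values cannot decide whether same-numbered mice shared a batch. The replicate block gave 12 genes, 0 members higher and 0 lower, with fewer residual degrees of freedom. Mice were matched here by the numbers of the labels. The third HFD replicate carries another number in its column name, so its pair and its block rest on the label alone.

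Some named genes, none of them called with all 6 mice, changed the sign of their log2 fold change. With total counts alone it became 0.105 for Gstp1, 0.0592 for Mgst1, 0.256 for Nqo1, 0.107 for Glo1 and 0.287 for Cbs, and with the replicate block 0.0109 for Mgst1. Over the fits that leave out 1 mouse, with any scaling, it ran from -0.718 to 0.0185 for Gpx3, from -0.0248 to 0.726 for Gsto1, from -0.669 to 0.239 for Mgst1, from -0.0542 to 0.347 for Prdx1, from -0.125 to 0.398 for G6pdx and from -0.951 to 0.346 for Cbs. Depth limits the members near 0 counts, and the spread between mice limits the others.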
